A study of Camellia sinensis with 6 samples.

Results

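The enzymes that remove reactive oxygen were followed in the leaf transcriptome of ‘Huangjinya’, a tea cultivar whose leaves are yellow in full light and turn green under shade. They were taken as the unigenes, the assembled transcript sequences, whose annotation against the Nr protein database names a superoxide dismutase (SOD), catalase (CAT), ascorbate peroxidase (APX), dehydroascorbate reductase (DHAR), glutathione reductase (GR), glutathione peroxidase (GPX), peroxiredoxin (PRX) or alternative oxidase (AOX). Since the words dehydroascorbate reductase also stand within monodehydroascorbate reductase (MDHAR), that enzyme was included as well. This gave 100 of the 127252 unigenes with values. There were 25 MDHAR, 22 APX, 17 SOD, 11 GPX, 9 PRX, 7 CAT, 3 DHAR, 3 GR and 2 AOX unigenes, and 1 was annotated as the copper chaperone of SOD.

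Plants of the cultivar, 2 years old, stood in 1 field. In one group, Y, they grew in sunlight, and in the other, Y+S, a shade net took away about 45% of the light for 10 days. The third leaf from the shoot tip was sampled, and 3 libraries were sequenced in each group. The study describes the 3 repeats of each group as biological, taken from different plants. The sources do not say how many plants a library holds, so the p-values measure the spread between these libraries. No other treatment or genotype was involved.

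The libraries held 10022397 to 18742989 uniquely aligned fragments on the unigenes analysed, and the unigenes described here took 0.483% to 0.633% of them. In the study, Y1 and Y+S3 were left out of the comparison because they stood apart from the other replicates in a principal component analysis. Counts over the whole set are therefore given over the 4 remaining libraries (Y2 and Y3 of sunlight with Y+S1 and Y+S2 of shading) and over all 6. Single unigenes are given by their values in all 6 libraries and mostly by the fold change over the 4. Y1 and Y+S3 also had fragments on shorter unigenes, with a mean unigene length per fragment of 1341 and 1376 nt against 1508 to 1675 nt in the others. Unigenes whose best hit was an alga, an oomycete or another organism outside the land plants took 3.45% of the fragments in Y+S3 and 0.302% to 0.874% in the other libraries. The columns were matched to the libraries by the key that accompanies the table. The sample descriptions of Y+S1 and Y3 carry 2 codes that conflict with this key. Every statement on Y1, Y3, Y+S1 or Y+S3 therefore depends on it, and so do the fits. Under the key Y+S1 had the most fragments and Y3 the fewest, and the same holds for the clean reads that the study lists.

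In leaves, superoxide forms mainly where electrons leak from the photosynthetic and respiratory chains to oxygen, and hydrogen peroxide forms in the peroxisome during photorespiration. SOD turns superoxide into hydrogen peroxide. CAT breaks this down in peroxisomes without a reductant, whereas APX reduces it with ascorbate. MDHAR and DHAR restore the oxidised ascorbate, and GR restores the glutathione that DHAR spends. GPX and PRX are thiol peroxidases, which in plants are mostly recharged by thioredoxin, and AOX is a mitochondrial oxidase that limits superoxide formation by passing electrons to oxygen without pumping protons.

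The assembly was redundant for these enzymes. Clusters of related contigs, whose names begin with CL, held 51 of the unigenes in 17 clusters, and the other 49 stood alone. Lengths ran from 205 to 2745 nt with a median of 1010 nt, and 19 unigenes were shorter than 500 nt. The best hit was a tea plant protein for 9 unigenes, a grapevine protein for 27, and another land plant for most of the rest. For 5 unigenes it lay outside the land plants, in Chlamydomonas (2), Coccomyxa, Ectocarpus and Phytophthora. The Nr annotation itself stated a compartment for 24 unigenes, with 13 in the chloroplast, 7 in the cytosol, 3 in the peroxisome and 1 in the mitochondrion. By the best Swiss-Prot hit, 30 were chloroplastic, 15 cytosolic, 9 peroxisomal and 8 mitochondrial, and 38 had no stated compartment. CAT carried no compartment in either annotation.

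Within the set, levels were compared per length as the mean FPKM (fragments per kilobase of unigene, scaled to the library total) over the 6 libraries. They spanned a wide range, with 14 unigenes at 100 FPKM or more and 25 under 1 FPKM, and the 10 most abundant held 66.1% of the summed FPKM. Unigene58187, the chloroplast copper/zinc SOD, was first at 711 FPKM. GPX Unigene10692 followed at 441, DHAR Unigene22727 at 335, CAT CL3171.Contig2 at 313 and APX CL3272.Contig1, of the cytosolic type, at 298. MDHAR Unigene10207 stood at 237 and PRX Unigene8626, a chloroplast type II peroxiredoxin, at 190 FPKM. Neighbours in this order were not separated by the spread between libraries, since the FPKM ranges of each adjacent pair of these 7 overlapped, for example 452 to 1143 for Unigene58187 and 255 to 802 for Unigene10692. Summed over a family, mean FPKM was 1140 for SOD, 836 for GPX, 716 for APX, 582 for CAT, 411 for DHAR, 372 for PRX, 324 for MDHAR, 51.9 for GR and 16.1 for AOX. In SOD, DHAR, MDHAR and AOX, 1 unigene carried 62.3%, 81.5%, 73.1% and 83.2% of its family's sum.

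**Figure D1:**
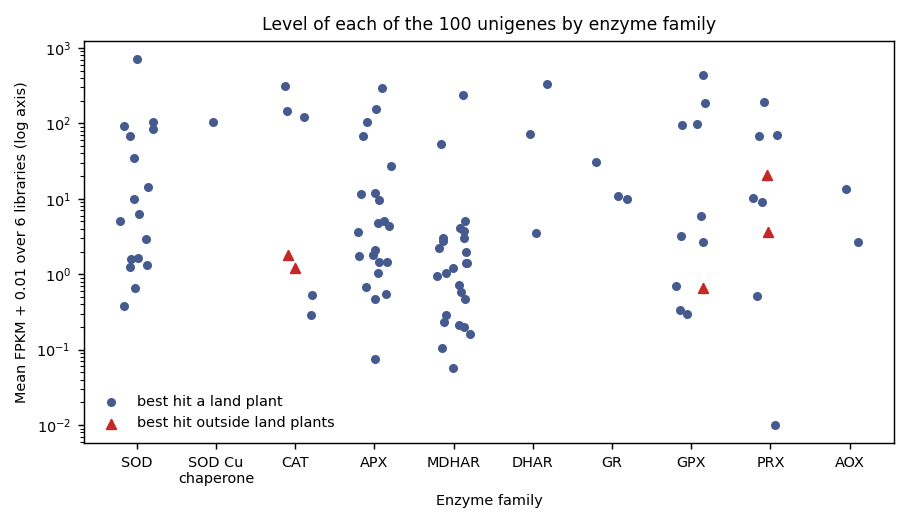
Mean FPKM plus 0.01 over the 6 libraries (log axis) for each of the 100 unigenes, by enzyme family. Circles have a best hit in land plants and red triangles outside them. Each large family has 1 to 4 abundant unigenes, led by the chloroplast copper/zinc SOD at 711 FPKM, and a tail of rare ones.

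The question of the design was whether these transcripts differ between yellow leaves in sunlight and greening leaves in shade. No member was called at an adjusted p of 0.05 by edgeR's quasi-likelihood test with Benjamini-Hochberg adjustment over all unigenes. This was 0 of 74 tested over the 4 libraries, where 0.0529% of all 64281 tested unigenes were called, and 0 of 72 over the 6 libraries, where 0 of 59300 were called (0.0%). At the stricter threshold used in the study (adjusted p of 0.001, and a fold change no smaller than 1 on the log2 scale), edgeR called no unigene of any kind in either comparison (0.0%), whereas DESeq2 called 0.699% of all unigenes over the 4 libraries and 0.155% over the 6, none of them a member. The number depended on single shaded libraries: without Y+S1 edgeR called 5 of 78 members (5.03% of all unigenes), and without Y+S2 it called 7 of 76 (9.55% of all), while it called 0 without Y2 or without Y3. In those fits shading is 1 library, which is assumed to vary like the sunlit ones. Unigene57318, a PRX, was the 1 member called in both, with log2 fold changes of -1.71 and -1.04. DESeq2 called 0 of 61 members over the 4 libraries (2.9% of all) and 0 of 76 over the 6 (0.857% of all). An unadjusted p under 0.05 was reached over the 4 libraries by 10 members in edgeR, 3 higher and 7 lower in shade. That is 13.5% of those tested beside 14.9% of all unigenes, a share near the background. Split by direction these are 4.05% higher beside 7.23% of all, and 9.46% lower beside 7.69% of all. Over the 6 libraries it was reached by 2 members, or 2.78%, beside 8.06% of all, and both were higher (4.39% of all higher, 3.67% lower).

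The lowest adjusted p of any member was 0.181 over the 4 libraries and 0.527 over the 6. The filter on low counts left out 26 members over the 4 libraries, none of them with a mean above 1.30 FPKM, and 28 over the 6. The median log2 fold change in shade was -0.06 over the 4 libraries, with 31 of the 74 members higher and 43 lower, beside a median of 0.03 for all unigenes. Over the 6 libraries it was 0.18, with 47 of 72 higher, beside 0.04 for all, and it turned to -0.11 when Y+S3 was left out. Groups of all 6 libraries that did not overlap were found for 3 of 72 members (4.17%), beside 14.0% of all unigenes. Higher in shade were 2 members beside 6.67% of all unigenes, and lower was 1 beside 7.28%. With scaling by library totals the number was 7 of 72 beside 11.8% of all, and CL5545.Contig5 was the 1 unigene found under both scalings. Without Y+S3 it was 22 of 74 beside 39.1%. The difference of Y+S3 from Y1 had the sign of the 4-library fold change in 38 of 74 members (51.4%), beside 56.7% of all unigenes, and in 7 of the 10 with an unadjusted p under 0.05, beside 74.8%.

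**Figure D2:**
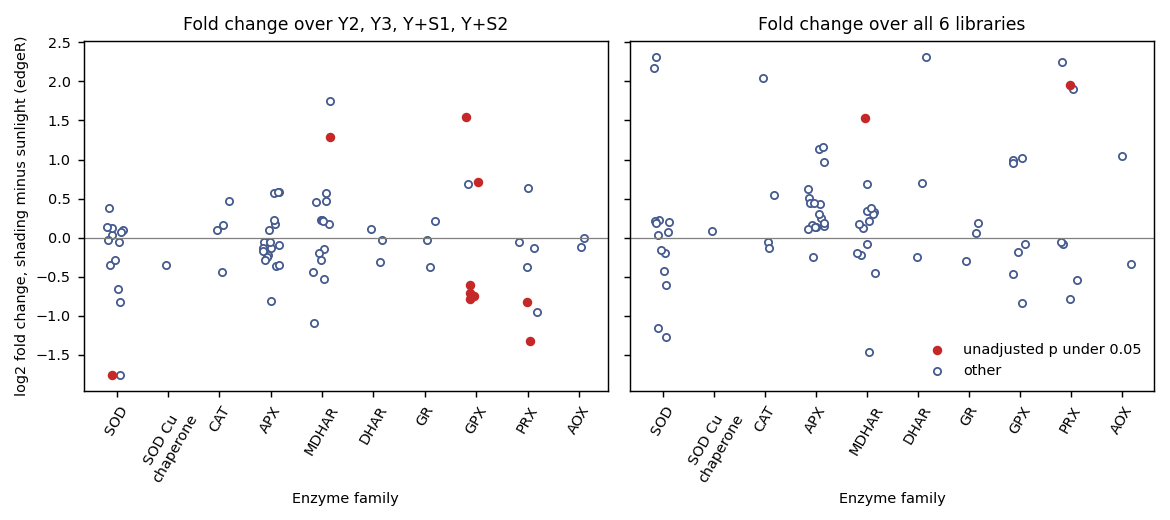
Log2 fold change of shading minus sunlight from edgeR (vertical axis) by enzyme family, left over the 4 libraries without Y1 and Y+S3 and right over all 6 libraries. Each point is 1 tested unigene, filled red where its unadjusted p is under 0.05 (10 on the left, 2 on the right), and no point passes the adjusted threshold.

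SOD is the entry point of the system. The chloroplast copper/zinc enzyme Unigene58187 had 697, 1201 and 447 CPM (counts relative to the library total, scaled by the trimmed mean of M-values, TMM) in the sunlit libraries Y1 to Y3, and 1020, 645 and 742 CPM in the shaded libraries Y+S1 to Y+S3, the order in which values are given throughout. On this scale the shaded libraries lay within the range of the sunlit ones, and Y2 alone was 2.69 times Y3. With library totals only, Y+S3 fell just below that range, at 504 CPM against 521 in Y1. Its log2 fold change was 0.03 with an SE of 0.49 (adjusted p = 0.987, edgeR, 4 libraries). The mitochondrial manganese SOD, Unigene10323, was far steadier at 146, 156 and 145 CPM in sunlight and 176, 147 and 201 CPM in shade. Its lowest shaded library overlapped the sunlit ones, and the log2 fold change was 0.12 with an SE of 0.25 (adjusted p = 0.872). Unigene38754, a copper/zinc SOD with no stated compartment, had 128 to 168 CPM in sunlight and 150 to 217 CPM in shade (log2 fold change 0.10, SE 0.25, adjusted p = 0.893, 4 libraries).

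Iron SOD, the other chloroplast form, had low values in these libraries. Its 4 contigs, all of cluster CL8414, summed to 2.45, 10.9 and 9.01 FPKM in sunlight and 7.95, 5.04 and 2.95 FPKM in shade. The chloroplast copper/zinc unigene stood 52.5 to 191 times above this sum, with both ends of the range in sunlit libraries. Only unique alignments were kept, so fragments shared by the iron SOD contigs were not counted. Their sum may therefore be too low and this multiple too high. Of the 3 iron SOD contigs tested, all had lower values in shade over the 4 libraries, at log2 fold changes of -0.29 to -0.82, and none had an adjusted p below 0.471. Without Y+S1, CL8414.Contig2 was called as lower (log2 fold change -1.27, adjusted p = 0.047). The chaperone that loads copper into copper/zinc SOD, Unigene52148, had 113, 139 and 138 CPM in sunlight and 113, 102 and 196 CPM in shade. Its log2 fold change was -0.35 over the 4 libraries (SE 0.24, adjusted p = 0.535) and 0.08 over the 6.

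Among rare SOD unigenes, 2 short ones had low values in shade. Unigene9718, of 481 nt and annotated without its metal in Nr, had 5.46, 4.29 and 3.55 CPM in sunlight and 0.684, 1.63 and 3.82 CPM in shade. Y+S3 overlapped the sunlit libraries on this scale but not with library totals, and over the 4 libraries the log2 fold change was -1.75 with an SE of 0.47 (adjusted p = 0.195), and without Y+S2 -2.50 (adjusted p = 6.0e-05). Unigene45781, of 222 nt, had 0.964, 2.28 and 1.35 CPM in sunlight and 0.147, 0.932 and 0.921 CPM in shade, with no overlap on this scale, an overlap with library totals, and an adjusted p of 0.337 (0.0017 without Y+S2). Both were named after their values were seen. Unigene63603, a copper/zinc SOD of 610 nt, had all its counts in Y+S1 (1.22 CPM) and none in the other 5 libraries, where a count of 0 allows up to 0.220 to 0.299 CPM before TMM scaling. Without Y+S2 it entered the test and was called (log2 fold change 7.17, adjusted p = 0.033), on the counts of Y+S1 alone.

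For catalase, the enzyme of leaf peroxisomes, 2 contigs of cluster CL3171 and the short Unigene10562 carried nearly all fragments. CL3171.Contig2 had 624, 826 and 899 CPM in sunlight and 852, 408 and 992 CPM in shade, so both extremes were shaded libraries on this scale. With library totals they were sunlit ones, Y1 at 466 and Y3 at 1060 CPM. Its log2 fold change was -0.44 with an SE of 0.39 (adjusted p = 0.644, 4 libraries). Without Y+S1 it was -1.07 (adjusted p = 0.034). CL3171.Contig1, which was closest to catalase isozyme 1 of grapevine, had 186, 244 and 249 CPM in sunlight and 392, 284 and 313 CPM in shade. All 3 shaded libraries were above all 3 sunlit ones on this scale. With library totals Y+S3, at 212 CPM, was below Y2 and Y3, at 258 and 294 CPM. The log2 fold change was 0.47 with an SE of 0.28 over the 4 libraries (adjusted p = 0.466) and 0.54 with an SE of 0.36 over the 6 (adjusted p = 0.690).

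The proportion of the 2 catalase contigs does not depend on how libraries are scaled. Contig1 had 0.299, 0.295 and 0.277 counts per count of Contig2 in sunlight, and 0.460, 0.696 and 0.315 in shade. The sunlit libraries lay close together and below every shaded library, of which Y+S3 was nearest to them. This ratio was chosen after the values were seen and was not tested. Fragments that the contigs share were not counted to either, since only unique alignments were kept. Unigene10562, of 416 nt, had 73.2, 42.4 and 46.4 CPM in sunlight and 65.2, 33.1 and 49.5 CPM in shade (log2 fold change 0.17, SE 0.34, adjusted p = 0.868, 4 libraries), with groups that overlap.

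APX is the first enzyme of the ascorbate-glutathione cycle. The cytosolic CL3272.Contig1 had 189, 334 and 369 CPM in sunlight and 356, 312 and 600 CPM in shade. Leaving aside Y1 and Y+S3, the lowest and the highest on this scale (with library totals Y3 was the highest), the libraries lay within 312 to 369 CPM, and the log2 fold change was -0.05 with an SE of 0.26 (adjusted p = 0.949). Unigene16066, a form assigned to the chloroplast stroma and mitochondrion, had 217, 282 and 263 CPM in sunlight and 268, 192 and 180 CPM in shade (log2 fold change -0.23, SE 0.28, adjusted p = 0.754). The peroxisomal CL3247.Contig1, of 389 nt, had 33.7, 44.5 and 40.7 CPM in sunlight and 44.1, 32.5 and 54.1 CPM in shade (log2 fold change -0.13, SE 0.25, adjusted p = 0.854).

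Direction within the APX family hung on the libraries used. Over the 4 libraries 12 of 18 APX unigenes were lower in shade with a median log2 fold change of -0.11. Over the 6 libraries 16 of 17 were higher with a median of 0.30, and 12 of the 17 had their highest value in Y+S3 (1 of the 17 with library totals). With library totals the sunlit Y1 was the lowest library for all of the 17 but Unigene16066 and Unigene22361. Summed over the family, Y1 was the lowest library with TMM scaling too, at 612 CPM against 694 to 1136 CPM in the others. All 9 peroxisomal APX unigenes, 7 of them from the single cluster CL3247, were higher over the 6 libraries, beside 4 of 9 over the 4. The counts of higher and lower APX unigenes were the same with library totals and with DESeq2 scaling. The smallest adjusted p in the family was 0.517 over the 4 libraries and 0.635 over the 6. The annotation of 2 short chloroplast APX unigenes, CL4280.Contig5 and Unigene68416, was backed in Swiss-Prot by a thylakoid lumenal protein rather than by an APX, and both were too rare to test.

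Regeneration of ascorbate rested on few abundant transcripts. MDHAR Unigene10207, matched to a tea plant protein, had 518, 435 and 415 CPM in sunlight and 383, 373 and 540 CPM in shade. Without Y1 and Y+S3 the libraries lay between 373 and 435 CPM and the log2 fold change was -0.15 with an SE of 0.26 (adjusted p = 0.839). The other 15 MDHAR unigenes of the usual type had no mean above 5 FPKM. The first of them, the chloroplast form Unigene11152, had 2.46, 4.2 and 6.35 CPM in sunlight and 6.55, 5.65 and 4.08 CPM in shade (log2 fold change 0.23, SE 0.31, adjusted p = 0.783, 4 libraries). DHAR Unigene22727, closest to the Arabidopsis DHAR2, had 346, 273 and 208 CPM in sunlight and 219, 246 and 883 CPM in shade. Y+S3 was 2.55 times the next library and the other 5 overlapped, with a log2 fold change of -0.03 (SE 0.27, adjusted p = 0.972) over the 4 libraries and 0.70 (SE 0.61, adjusted p = 0.770) over the 6. The chloroplast DHAR Unigene58164 had 69.4, 104 and 114 CPM in sunlight and 106, 66.5 and 69.7 CPM in shade (log2 fold change -0.32, SE 0.29, adjusted p = 0.656, 4 libraries). All DHAR unigenes of the set carried the KEGG entry of valyl-tRNA synthetase, although Nr and Swiss-Prot name DHAR.

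A further 9 unigenes were annotated as bifunctional MDHAR and carbonic anhydrase, nectarin-3-like, and their KEGG entry was carbonic anhydrase rather than MDHAR. Nectarin 3 is a protein of tobacco nectar. They belong to clusters CL5545 and CL7312. CL5545.Contig6 was the most variable abundant unigene of the set, with 255, 4.29 and 24.2 CPM in sunlight and 17.8, 76.5 and 7.89 CPM in shade. Its highest library, Y1, was 59.5 times its lowest, Y2, of the same group. The log2 fold change was 1.75 (SE 0.84, adjusted p = 0.381) over the 4 libraries and -1.47 (SE 1.36, adjusted p = 0.790) over the 6. It was called among the 4 libraries when Y+S1 was left out (log2 fold change 2.44, adjusted p = 3.6e-14) and turned from -1.47 to 1.30 among the 6 when Y1 was left out. CL5545.Contig5 had 1.93, 1.4 and 3.22 CPM in sunlight and 6.5, 4.66 and 7.89 CPM in shade. All shaded libraries were above all sunlit ones, and the log2 fold change was 1.29 (SE 0.43, adjusted p = 0.243, and 0.0026 without Y+S2) over the 4 libraries and 1.53 (SE 0.45, unadjusted p = 0.0095, adjusted p = 0.527) over the 6. It is 1 of the 3 unigenes whose groups do not overlap and was named for that pattern.

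GR restores glutathione with NADPH, and its groups overlapped in all 3 unigenes. The chloroplast form Unigene56878 had 54.3, 75.7 and 69.2 CPM in sunlight and 105, 60.9 and 40.9 CPM in shade (log2 fold change 0.21, SE 0.30, adjusted p = 0.798, 4 libraries). The cytosolic CL943.Contig2 had 23.3, 19.7 and 23.5 CPM in sunlight and 21.6, 19.99 and 12.4 CPM in shade (log2 fold change -0.04, SE 0.24, adjusted p = 0.966). Its sister CL943.Contig3 had 13.8, 19.2 and 21.9 CPM in sunlight and 12.6, 18.6 and 31.7 CPM in shade (log2 fold change -0.38, SE 0.28, adjusted p = 0.567). Summed, the cytosolic contigs had 37.2, 38.9 and 45.4 CPM in sunlight and 34.3, 38.6 and 44.1 CPM in shade, overlapping over nearly their whole range.

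**Figure D3:**
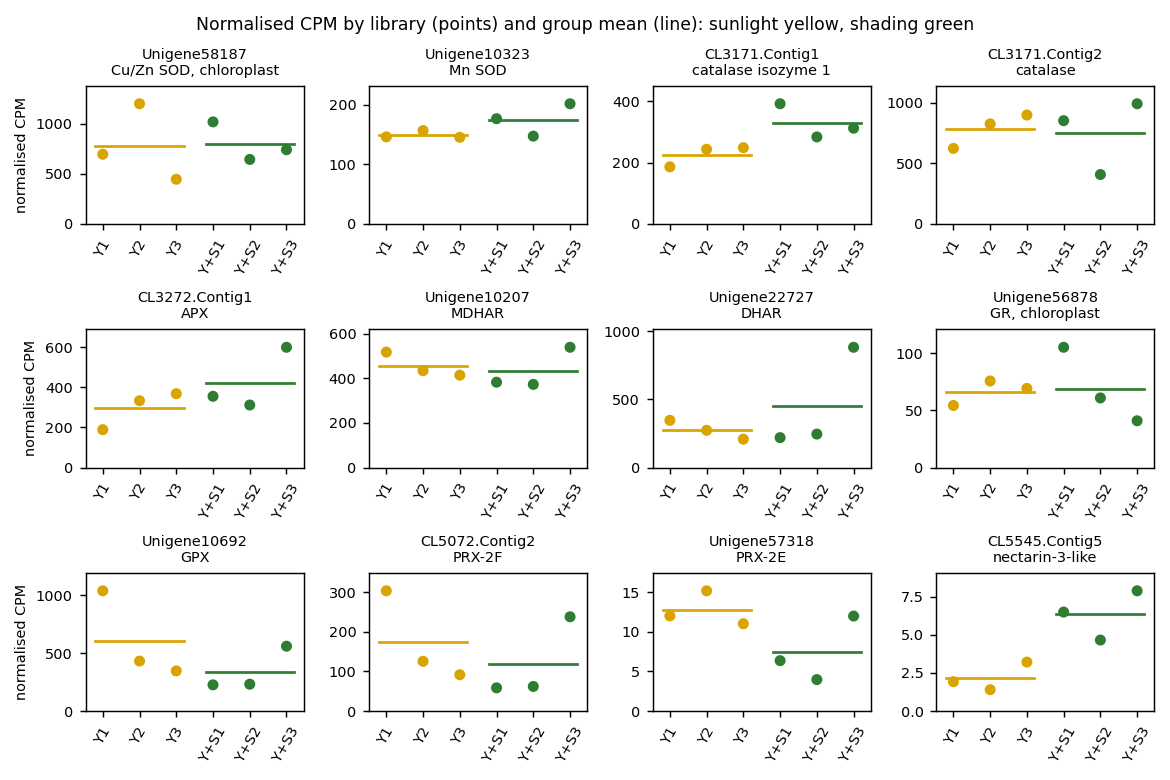
TMM-scaled CPM (linear axes from 0) of 12 unigenes in the 6 libraries, sunlight in yellow and shading in green, with a line at each group mean. On this scale the groups overlap in 10 of the 12 panels, and CL3171.Contig1 and CL5545.Contig5 are higher in all 3 shaded libraries.

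Of the 7 GPX unigenes tested over the 4 libraries, 4 had lower and 2 higher values in shade at an unadjusted p under 0.05, and of the 7 PRX unigenes 2 had lower values at that level, beside 7.69% of all unigenes lower and 7.23% higher. No GPX or PRX unigene was lower at that level over the 6 libraries, and 1 PRX was higher. Of the lower GPX unigenes, Unigene10692, Unigene10115 and Unigene39981 have best hits of the same name in Nr and in Swiss-Prot. Whether they come from 1 gene was not tested, so they may not count as separate genes. GPX Unigene10692, a tea plant match whose Swiss-Prot hit is a mitochondrial phospholipid hydroperoxide GPX, had 1039, 432 and 347 CPM in sunlight and 226, 232 and 561 CPM in shade. Y+S1 and Y+S2 were the lowest libraries, but Y+S3 exceeded Y2 and Y3 on this scale. With library totals Y+S3, at 381 CPM, was below all sunlit libraries, the lowest of which was Y3 at 409 CPM. The log2 fold change was -0.75 with an SE of 0.27 over the 4 libraries (adjusted p = 0.264) and -0.84 with an SE of 0.60 over the 6 (adjusted p = 0.713). Unigene10115 had 170, 90.3 and 58.6 CPM in sunlight and 45.1, 45.2 and 211 CPM in shade. Unigene39981 had 120, 54.1 and 40.1 CPM in sunlight and 27.0, 27.0 and 135 CPM in shade. In both, Y1 and Y+S3 were the 2 highest libraries, also with library totals. Over the 4 libraries their log2 fold changes were -0.71 (SE 0.28, adjusted p = 0.303) and -0.79 (SE 0.25, adjusted p = 0.234), and over the 6 libraries -0.09 and -0.18. Unigene52396, close to the grapevine GPX4 and named after its values were seen, had 192, 83.3 and 81.2 CPM in sunlight and 47.2, 59.9 and 151 CPM in shade (log2 fold change -0.60, SE 0.25, adjusted p = 0.316, 4 libraries).

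Less abundant GPX unigenes stood the other way. CL1918.Contig1, closest to Arabidopsis GPX2, had 5.46, 3.33 and 2.88 CPM in sunlight and 4.79, 5.25 and 13.3 CPM in shade, with Y1 above the lower shaded libraries on this scale (log2 fold change 0.71, SE 0.30, adjusted p = 0.326, 4 libraries). CL11744.Contig2, which shares that Swiss-Prot hit, had 1.27 to 2.25 CPM in sunlight and 2.10 to 5.53 CPM in shade (log2 fold change 0.68, SE 0.40, adjusted p = 0.468). In neither of these contigs did the groups overlap with library totals. Unigene29663, of 422 nt, had 0.750, 0.438 and 0.931 CPM in sunlight and 2.10, 1.86 and 0.132 CPM in shade (log2 fold change 1.54, SE 0.50, adjusted p = 0.238). It bears the name GPX in Nr only, since its Swiss-Prot hit is a HUA2-like protein and it has no KEGG entry, so its identity as a peroxidase is uncertain. These 3 were also named after their values were seen.

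Among peroxiredoxins, the abundant Unigene8626 (chloroplast type 2E) had 344, 253 and 176 CPM in sunlight and 250, 135 and 348 CPM in shade (log2 fold change -0.14, SE 0.36, adjusted p = 0.900, 4 libraries). A second unigene of this type, Unigene57318, had 11.99, 15.2 and 11 CPM in sunlight and 6.35, 3.96 and 11.97 CPM in shade. Y+S1 and Y+S2 were below every sunlit library, and Y+S3 was so only with library totals. The log2 fold change was -1.32 with an SE of 0.33 over the 4 libraries (adjusted p = 0.181) and -0.79 with an SE of 0.45 over the 6 (adjusted p = 0.662). It passed the threshold without Y+S1 (adjusted p = 0.00019) and without Y+S2 (adjusted p = 0.041). It had the smallest p of all members over the 4 libraries and was named after its values were seen. The mitochondrial PRX-2F, CL5072.Contig2, had 304, 126 and 91.7 CPM in sunlight and 58.6, 62.1 and 238 CPM in shade. It was high in Y1 and Y+S3 like the GPX unigenes, and its log2 fold change was -0.83 (SE 0.26, adjusted p = 0.228) over the 4 libraries and -0.54 (SE 0.70, adjusted p = 0.859) over the 6. Unigene9691, a type II peroxiredoxin by Nr but a thioredoxin-like protein by Swiss-Prot, had 71.5, 103 and 111 CPM in sunlight and 132, 70.2 and 71.4 CPM in shade (log2 fold change -0.06, SE 0.33, adjusted p = 0.957). Its KEGG entry was galactonate dehydratase.

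The thiol peroxidases did not vary alone between libraries. Summed over the family, GPX had 1530, 666 and 533 CPM in sunlight and 356, 375 and 1081 CPM in shade. The 134 unigenes of thiol electron donors, which are thioredoxins, glutaredoxins, thioredoxin reductases and sulfiredoxins, summed to 7372, 4095 and 3449 CPM in sunlight and 2794, 2247 and 6549 CPM in shade. Markers of dividing cells, the 112 unigenes of core histones, cyclin B, the replication clamp and ribonucleotide reductase, summed to 12050, 4347 and 3235 CPM in sunlight and 2009, 3707 and 7076 CPM in shade. On this scale Y1 and Y+S3 were the 2 highest libraries in all of these sums. In summed FPKM they were so for GPX and for the thiol electron donors, the latter with 4772 in Y+S3 and 4392 in Y2. The dividing cell markers summed to 12660, 6006 and 4804 FPKM in sunlight and 2675, 6061 and 6025 FPKM in shade, so Y+S2 was above Y+S3. Of the dividing cell markers tested over the 4 libraries, 19 of 92 were higher in shade and 73 lower, with a median log2 fold change of -0.50 and none called. Over the 6 libraries 17 of 90 were higher and 73 lower, with a median of -0.48 and none called. Groups of all 6 libraries did not overlap for 19 of the 90 lower in shade and 1 higher, beside 7.28% and 6.67% of all unigenes. The part of dividing cells in the GPX values was not tested.

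Length moved with the same libraries. Members shorter than 1000 nt stood 0.70 higher on the log2 scale in Y1 and Y+S3 than in the other 4 libraries in the median (27 tested), beside 0.17 for all unigenes of that length. From 1000 to under 1500 nt the median difference was 0.10 (28 tested), beside 0.12 for all, and at 1500 nt or more it was -0.25 (17 tested), beside -0.32. All 4 abundant GPX unigenes fall in the shortest class, while CL5072.Contig2, with 1909 nt, does not. The part of fragment length in these values was not tested.

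**Figure D4:**
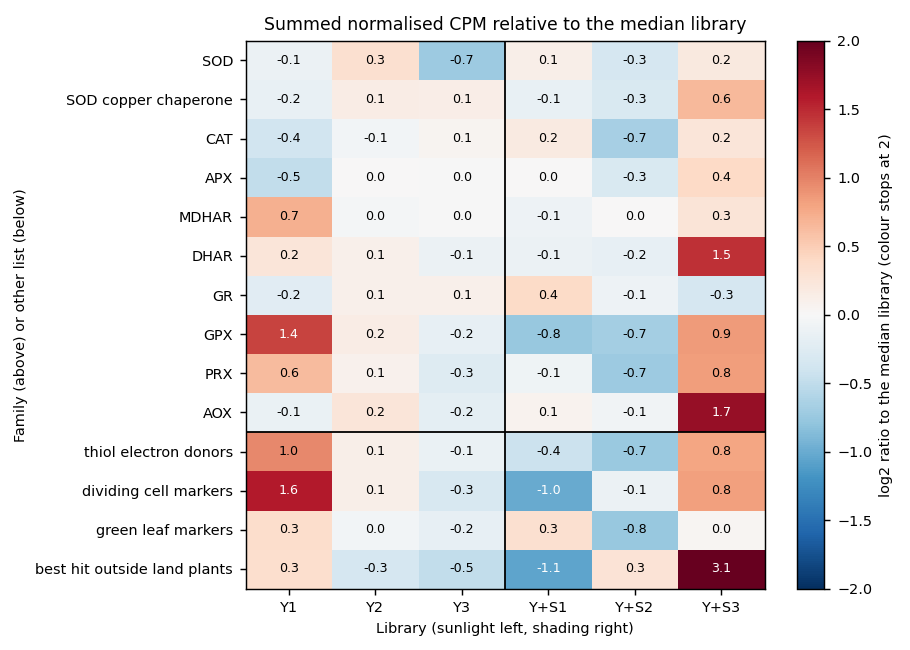
Log2 ratio of summed TMM-scaled CPM to the median library for each enzyme family (above the line) and 4 other lists (below it), with sunlit libraries on the left. Y1 and Y+S3 are the 2 highest libraries for GPX, PRX, MDHAR, DHAR, thiol electron donors, dividing cell markers and best hits outside land plants. Y+S3 is also the highest library for AOX, APX, CAT and the SOD copper chaperone. These ranks depend on the scale. In summed FPKM, Y1 and Y+S3 stay the 2 highest only for GPX and thiol electron donors. There, Y+S3 is the lowest library for MDHAR (230) and Y1 the lowest for DHAR (311). Y2 exceeds Y1 for PRX (401 against 388), and Y+S2 exceeds Y1 for hits outside land plants (8966 against 5670). Y+S3 stays the highest for AOX but not for APX, CAT or the chaperone.

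Some members stood out in Y+S3 above every other library. A few of them were raised in Y+S2 as well. There, PRX Unigene57505 had 9.85 CPM and CAT Unigene53981 1.05 CPM, against at most 4.66 and 0.293 CPM in Y1 to Y3 and Y+S1. Others, such as PRX Unigene21779 and Unigene27609, were not raised in Y+S2. In 12 of the 100, the scaled CPM of Y+S3 was more than 3 times that of every other library, and 7 remained when counts were scaled by library totals only. The 12 held all 5 members with a best hit outside the land plants and 7 with a land plant hit, and the 7 that remained with library totals held 3 and 4. Of the members tested over the 6 libraries 8 of 72 met this condition, beside 6.17% of all unigenes tested. It was met by 80.0% of the 1388 tested unigenes with a best hit outside the land plants and by 3.38% of the 45879 tested unigenes with a land plant hit.

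Unigene21779, which matched a 2-Cys peroxiredoxin of the green alga Chlamydomonas, had 11.2, 12.5 and 8.80 CPM in sunlight and 4.64, 11.7 and 140 CPM in shade. Among the 4 libraries it was called as lower without Y+S2 (adjusted p = 0.018). Unigene27609, with the same best hit, had 2.25, 1.75 and 1.27 CPM in sunlight and 0.391, 1.17 and 18.7 CPM in shade. No other member was named a 2-Cys peroxiredoxin in Nr, the main chloroplast type of plants. The catalases Unigene47179, matched to the oomycete Phytophthora, and Unigene53981, matched to the brown alga Ectocarpus, reached 5.92 and 4.60 CPM in Y+S3 and at most 1.4 and 1.05 CPM elsewhere. GPX Unigene73247, matched to the alga Coccomyxa, had no count in 4 libraries, 0.117 CPM in Y+S2 and 1.84 CPM in Y+S3.

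The other 7 had a best hit in a land plant. SOD CL806.Contig2, matched to wheat, had 7.28, 8.14 and 5.67 CPM in sunlight and 2.44, 8.28 and 94.3 CPM in shade. SOD CL8168.Contig2, matched to Arabidopsis lyrata, had 5.68, 4.12 and 2.12 CPM in sunlight and 1.66, 5.13 and 47.5 CPM in shade, and its sister CL8168.Contig1 reached 4.74 CPM in Y+S3 beside at most 1.05 CPM elsewhere. Among the 4 libraries CL806.Contig2 was lower at an adjusted p of 0.0044 when Y+S2 was left out. DHAR Unigene44848, matched to spinach, had 1.28, 2.01 and 2.45 CPM in sunlight and 1.32, 3.50 and 24.5 CPM in shade. The 1-Cys peroxiredoxin Unigene57505 had 4.18, 4.12 and 4.66 CPM in sunlight and 3.66, 9.85 and 37.1 CPM in shade. Its log2 fold change over the 6 libraries, 1.95 with an SE of 0.77, had an unadjusted p of 0.036 and an adjusted p of 0.607. Among the 4 libraries it was called without Y+S1 (log2 fold change 1.17, adjusted p = 0.021). PRX CL4291.Contig2, of 229 nt, was nearly absent outside Y+S3, where it had 0.921 CPM. Of the unigenes described here as high in Y+S3, the catalases Unigene47179 and Unigene53981, the SOD CL8168.Contig1 and Unigene57505 were 2.04 to 2.44 times the next library with library totals, below the limit of 3.

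AOX, the bypass oxidase of mitochondria, met this condition with TMM scaling only. Unigene45395, annotated as alternative oxidase 1b of tomato, had 11.1, 16.8 and 10.9 CPM in sunlight and 15.0, 12.4 and 53.3 CPM in shade. The groups overlapped and Y+S3 was 3.17 times the next library, or 2.03 times with library totals. The log2 fold change was 0.00 with an SE of 0.29 over the 4 libraries (adjusted p = 0.999) and 1.05 with an SE of 0.59 over the 6 (adjusted p = 0.655). Unigene27390, the second AOX, had 4.18, 3.06 and 3.64 CPM in sunlight and 2.59, 3.5 and 2.5 CPM in shade and was not raised in Y+S3. Whether the transcripts that stood out in Y+S3 came from other organisms on the leaf or from the tea plant was not tested.

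**Figure D5:**
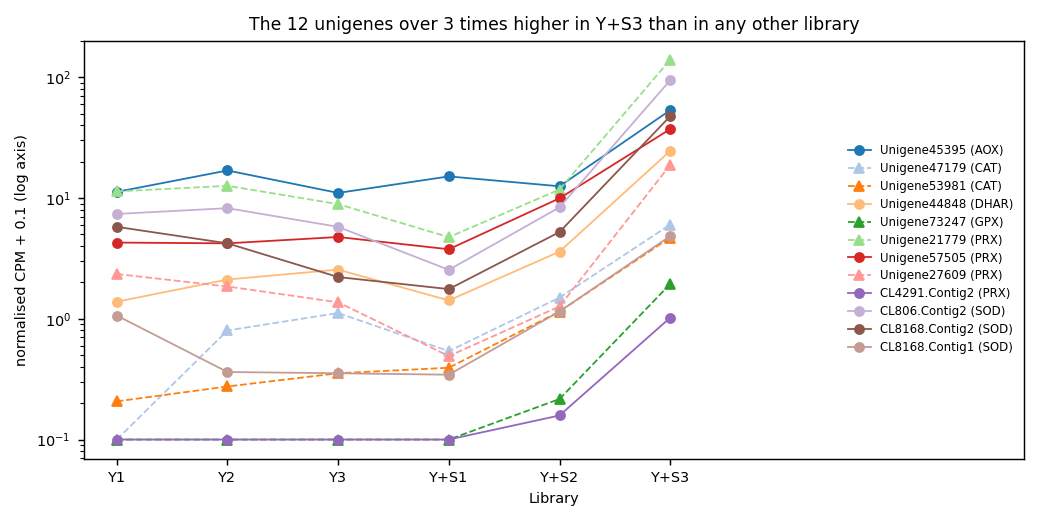
TMM-scaled CPM plus 0.1 (log axis) by library of the 12 unigenes that were more than 3 times higher in Y+S3 than in any other library. Triangles with dashed lines have a best hit outside the land plants and circles a land plant hit. All 12 lines are highest in Y+S3, up to 140 CPM for Unigene21779.

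More generally, Y+S3 was the highest library for 37 of the 72 members tested over the 6 libraries, beside 23.4% of all unigenes. With scaling by library totals it was the highest for 15 of 72, beside 11.9% of all, because its TMM factor was 0.695, the lowest of the 6. The spread within groups was of the usual size in sunlight, with a median SD of log2 CPM of 0.38 for members and 0.39 for all unigenes. In shade it was 0.60 for members and 0.50 for all. Between Y2 and Y3 it was 0.22 for members and 0.21 for all, and between Y+S1 and Y+S2 it was 0.32 and 0.23.

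By compartment, the 7 tested mitochondrial members had a median log2 fold change of -0.71 over the 4 libraries, with 5 of 7 lower and 4 at an unadjusted p under 0.05, beside 7.69% of all unigenes lower at that level, and none at that level over the 6. These 4 are the 3 GPX unigenes and the PRX-2F described above. The 3 GPX unigenes share the names of their best hits and may not be separate genes. The 22 chloroplast members had a median of -0.26 (7 higher, 15 lower), the 13 cytosolic members -0.06 (5 higher, 8 lower) and the 9 peroxisomal members -0.06 (4 higher, 5 lower). Over the 6 libraries the medians were -0.18, -0.06, 0.19 and 0.45. No member of any compartment was called.

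Genes around the cycle were taken from lists of words in the Nr annotation, and again none was called. Beside them, 7.23% of all unigenes were higher and 7.69% lower at an unadjusted p under 0.05 over the 4 libraries, and 4.39% and 3.67% over the 6. Of the ascorbate synthesis unigenes 17 of 23 tested over the 4 libraries were higher in shade, with 3 higher and 2 lower at that level and a median log2 fold change of 0.28. Glutathione synthesis had 12 of 15 higher, with 3 higher and 0 lower at that level and a median of 0.54. Sources of superoxide and hydrogen peroxide, such as respiratory burst oxidases and the glycolate oxidase of photorespiration, had 12 of 15 higher, with 4 higher and 0 lower at that level and a median of 0.40. Thiol electron donors had 73 of 106 lower, with 4 higher and 22 lower at that level and a median of -0.33. Ferritin and methionine sulfoxide reductase, which store iron and repair oxidised methionine, had 13 of 27 higher, with 0 higher and 4 lower at that level and a median of -0.02, which turned to 0.04 with library totals. At that level over the 6 libraries these lists had, in the same order, 4, 1, 3, 4 and 2 unigenes higher and 0, 1, 0, 2 and 1 lower. The other 4 lists kept the sign of their median with library totals and with DESeq2 scaling. Over the 6 libraries the medians of these lists were 0.38, 0.24, 0.39, -0.24 and 0.00. The green leaf markers, such as the small subunit of Rubisco and chlorophyll a/b binding proteins, had 30 of 52 higher and 22 lower, with a median of 0.14 over the 4 libraries and -0.05 over the 6. They summed to 29930 to 64120 CPM, with no library lacking them. Of the 3 tocopherol synthesis unigenes 1 could be tested, with a log2 fold change of -0.04 over the 4 libraries.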

How the data were processed

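RNA of leaves was sequenced in 6 libraries. The authors removed adapters, reads of low quality and reads with many unknown bases. De novo assembly used Trinity, contigs were joined with TGICL and Phrap, and annotation used Blast. The raw counts of uniquely aligned fragments per unigene were deposited by the authors without normalization. The authors also deposited FPKM, calculated from these counts, the unigene length and the library total. The aligner and the use of strand are not given in the sources used here. One line of the table was empty and was not analysed. Unigenes carry no genome position, and no sequence was used.

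Members were found by words in the Nr annotation and grouped by enzyme and by compartment. The members and lists were chosen with earlier results of these data known. After filterByExpr and TMM scaling, all unigenes were fitted with the quasi-likelihood method in edgeR 4.0.16 (R 4.3.3) and tested two-sided, with Benjamini-Hochberg adjustment over all unigenes tested. DESeq2 1.42.0 was an alternative, beside scaling by library totals, no filter, a replicate block and leaving out each library. The biological coefficient of variation was 0.282 over 4 libraries and 0.513 over 6. CPM values use the TMM factors of all 6 libraries, which ran from 0.695 to 1.29. Where a library had 0 counts, the limit given is that of 3 counts, which covers counting error only. Non-overlap means that every library of one group exceeds every library of the other. Scripts were tested on simulated counts.

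By rule the text names, among members with a land plant hit and at least 300 nt, the 3 with the highest mean FPKM in each family, all called members (there were none), and up to 6 in each direction with the smallest p whose groups do not overlap. Other members are named by their values, and the text says so or gives the condition. Contigs of 1 cluster may split the fragments of a gene, so their values are uncertain. Figures were drawn with matplotlib 3.10.9.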

Additional observations from a re-analysis of the deposited data

How the results depend on the processing

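With DESeq2, with scaling by library totals and with no filter on low counts, 0 members were called over the 4 and over the 6 libraries, as in the main test, and the median log2 fold changes moved by less than the spread between libraries. Leaving out 1 library gave 0 to 7 called members over the 4 libraries, a median of -0.238 to -0.005 over the 4 and of -0.107 to 0.274 over the 6, the lowest without Y+S3. Members whose groups do not overlap numbered 7 of 72 with library totals (11.8% of all unigenes) and 10 of 99 with no filter (12.6%). Counting each cluster once they were 1 of 53, beside 14.0% of all unigenes, whose clusters were not merged. When 1 library was left out they were 10 to 22 of 74 to 76 (20.4% to 39.1%), where fewer libraries overlap less by construction. The cause of the other changes was not tested. Counting each cluster once, keeping land plant hits only or keeping members of at least 500 nt left the number called at 0.

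Replicate numbers gave no sign of pairing: deviations of same-numbered libraries correlated at -0.395, 0.00809 and -0.493. The deviations were taken from group means that include Y1 and Y+S3, which correlated with each other at 0.436. This check therefore cannot decide whether samples were paired. With the replicate block over the 6 libraries 0 members were called and the median was 0.105, 2 members had an unadjusted p under 0.05 (3.87% of all), and GR Unigene56878 turned to -0.047. No paired analysis was possible over the 4 libraries because they share only 1 replicate number.

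Of the uncalled log2 fold changes near 0, Unigene45395 and Unigene58187 were -0.036 and -0.015 over the 4 libraries with DESeq2, and Unigene45395 was -0.004 with no filter. With library totals Unigene22727 was 0.04 and CL943.Contig2 0.009 over the 4 libraries, and Unigene52148 was -0.027 over the 6.

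Leaving out 1 of the 4 libraries in turn changed the sign of 20 named unigenes. Their log2 fold changes ranged from -0.264 to 0.176 for Unigene22727, -0.747 to 0.651 for Unigene44848, -0.039 to 0.507 for Unigene11152, -0.657 to 0.223 for Unigene8626 and -0.941 to 0.705 for Unigene47179. The next ranged from -0.325 to 0.346 for Unigene45395, -0.159 to 0.049 for CL943.Contig2, -0.561 to 0.917 for Unigene58187, -0.097 to 0.274 for Unigene38754 and -0.899 to 0.725 for CL8168.Contig2. The next ranged from -0.362 to 0.068 for Unigene27390, -0.415 to 0.564 for Unigene10562, -0.244 to 0.543 for Unigene56878, -0.029 to 0.232 for Unigene10323 and -1.194 to 0.135 for Unigene21779. The next ranged from -1.491 to 0.267 for CL806.Contig2, -0.163 to 0.027 for CL3272.Contig1, -0.383 to 0.056 for CL3247.Contig1, -0.597 to 0.317 for Unigene9691 and -0.249 to 1.173 for Unigene57505. Leaving out 1 of the 6 libraries in turn changed the sign of 20. They ranged from -0.4 to 0.169 for Unigene10562, -1.24 to 0.448 for Unigene10115, -1.402 to 0.439 for Unigene39981, -0.392 to 0.329 for Unigene56878 and -0.262 to 0.046 for Unigene10207. The next ranged from -2.858 to 1.303 for CL5545.Contig6, -0.424 to 0.222 for Unigene8626, -1.527 to 0.157 for CL5072.Contig2, -0.259 to 0.485 for Unigene58187 and -1.147 to 0.088 for Unigene52396. The next ranged from -0.435 to 0.11 for Unigene9691, -0.306 to 0.244 for CL3171.Contig2, -0.04 to 0.315 for CL3247.Contig1, -0.242 to 1.016 for Unigene22727 and -0.213 to 0.442 for CL943.Contig3. The next ranged from -0.261 to 0.26 for Unigene52148, -0.4 to 2.778 for Unigene21779, -1.163 to 2.459 for Unigene27609, -0.378 to 2.843 for CL806.Contig2 and -0.213 to 2.705 for CL8168.Contig2. 

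Depth limited the rare members: 26 of the 100 could not be tested over the 4 libraries.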
